A study of Mus musculus with 6 samples.

Results

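The genes described here make ribosomes. They are 43 genes for RNA polymerase I and its initiation factors, for the proteins of small nucleolar ribonucleoprotein particles (snoRNPs) and for nucleolar factors that process and assemble the 40S and 60S ribosomal subunits. They were listed by name as genes of this pathway, with earlier results of these data known. All 43 were among the 16440 genes of the deposited table and among the 14595 genes that passed the filter on low values.

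RNA sequencing covered 3 libraries of normal MPs, which were Lin-Sca-1-c-Kit+ cells from FVB N/J mouse bone marrow, and 3 libraries of c-Kit+ APL progenitors of the same strain. The APL cells came from mice with the hMRP8-PML/RARα transgene, in which a promoter active in myeloid cells drives the human PML/RARα fusion gene. They were labeled with GFP by the retroviral vector MigR1, expanded by transplantation into young adult syngeneic mice and sorted for GFP and c-Kit, whereas no transgene, GFP or transplantation was named for the normal MPs. The design names 3 biological replicates per group without saying that they were separate mice, the labels give no ages for the mice the cells came from, and if the libraries of a group share a source the p-values measure only the spread between libraries.

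Ribosome production starts in the nucleolus, where RNA polymerase I copies the rRNA genes into a single long precursor. Box C/D snoRNPs guide the methylation of rRNA and box H/ACA snoRNPs guide its pseudouridylation. A large assembly called the small subunit processome then cuts and folds the part that becomes the 40S subunit, while a separate series of GTPases, helicases and scaffold proteins builds the 60S subunit. The pathway takes up much of the synthetic effort of a growing cell, is induced by MYC and is active in dividing blood progenitors.

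Most of these genes were downregulated in the APL progenitors, each by a modest amount. With limma, 36 of 43 were lower at an adjusted p under 0.05 at any fold change (83.7%, beside 37.3% of all genes tested), and 2 were higher (4.65%, beside 29.7%). With a fold change over 1.5 required as well, which is what "called" means below, 20 were downregulated (46.5%, beside 24.4% of all genes tested) and 1, Dkc1, was upregulated (2.33%, beside 21.7%). The remaining 22 were not called. The values of all 3 APL libraries lay below all 3 MP libraries for 36 members (39.8% of all genes tested did so) and above them for 3 members (31.1% of all genes tested), while 4 members overlapped.

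The log2 fold changes of the 43 genes ran from -1.09 (Mrto4) to 0.74 (Dkc1), with 37 below 0 and 6 above. Their median log2 fold change was -0.55, or 1.46-fold lower, beside -0.10 for all genes tested, and the quartiles were -0.72 and -0.35, beside -0.63 and 0.53. Between a 1.5-fold and a 2-fold decrease lay 19 members (44.2%), against 9.34% of all genes. Beyond 2-fold lay 1 member (2.33%), against 17.3% of all genes. Fold changes throughout are APL against MP on the log2(scaled fragments + 1) scale, and their standard errors among the 43 genes lay between 0.06 and 0.15.

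**Figure D1:**
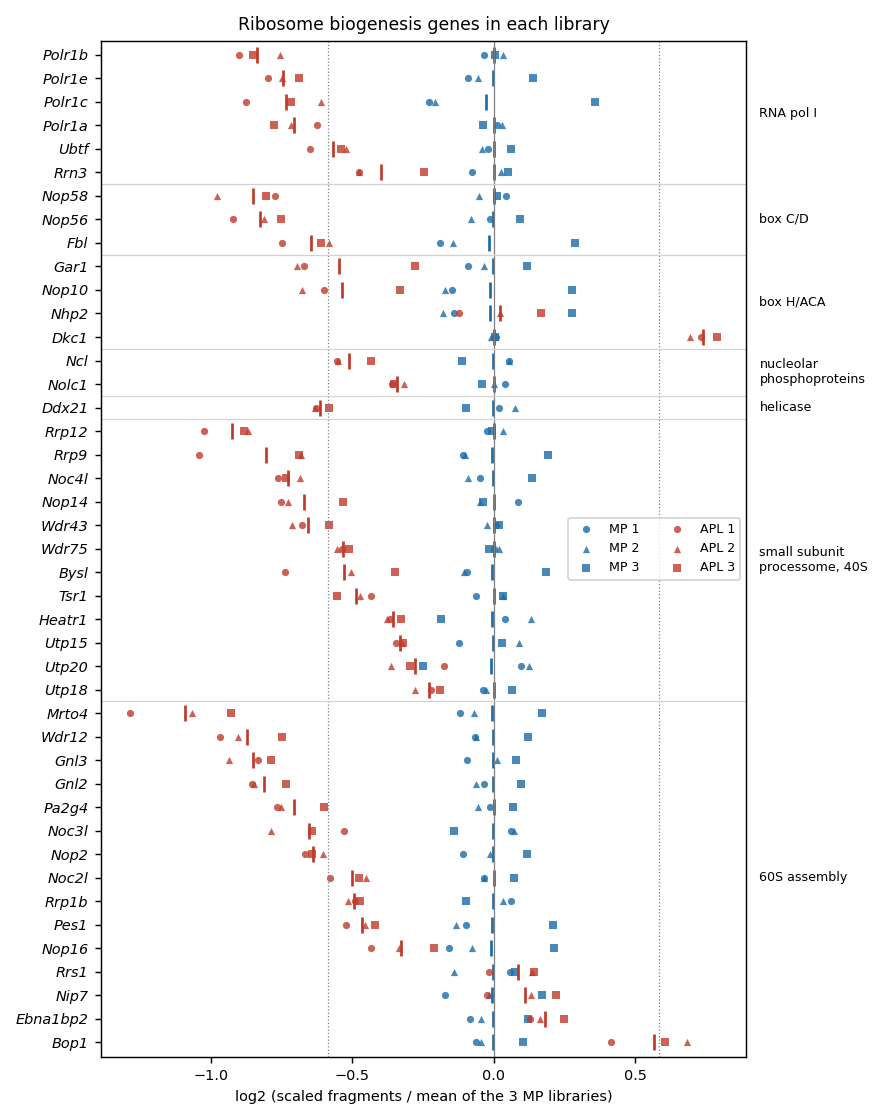
Each point is 1 library, placed by its log2 ratio of scaled fragments to the mean of the 3 MP libraries, with genes grouped by role; short vertical bars are group means and dotted lines mark a 1.5-fold difference. APL points lie below MP points for 36 genes and above them only for Dkc1, Bop1 and Ebna1bp2.

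As a share of all fragments, the 43 genes together took 0.975% in MP 1, 0.986% in MP 2 and 0.908% in MP 3, and between 0.632% and 0.638% in the APL libraries. Their summed FPKM, a level per transcript length, was 2610, 2620 and 2855 in MP and 1903, 1962 and 2051 in APL. Both sums were lower in every APL library than in every MP library. In bulk samples, fewer cells of a type and less RNA per cell cannot be told apart.

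The libraries held between 20608715 and 28382785 fragments before scaling, and every member had at least 464 of them in each library, so counting error was smaller than the spread between libraries. MP 3 stood apart from MP 1 and MP 2: 32 of the 43 genes were above the MP mean in it, and the median squared difference over counting noise for these genes was 45.0 and 42.7 against MP 1 and MP 2, compared with 2.58 between MP 1 and MP 2. Without MP 3, 17 members were called lower (39.5%, beside 20.7% of all genes tested) and 2 higher, beside 23.1% of all genes tested. At an adjusted p under 0.05, 37 were lower (86.0%, beside 35.3%).

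The sorted cells differed in lineage markers as well. Kit was at 72.4 ± 1.96 FPKM in MP and 40.4 ± 0.62 in APL (SD, n = 3 per group, here and below). The summed FPKM of 12 erythroid markers was between 2130 and 2650 in MP and between 47.1 and 56.1 in APL, with 10 of 11 tested called lower. For 8 megakaryocyte markers it was 69.1 to 105 in MP and 3.59 to 5.40 in APL, with 5 of 7 called lower, and Gp6 was at 0 in every APL library and in MP 2 and MP 3. For 10 promyelocyte and granulocyte markers it was 20200 to 27900 in MP and 72400 to 86900 in APL, with 5 of 10 called higher and 2 lower. Summed levels of 12 proliferation genes were closer, at 1190 to 1320 in MP and 1110 to 1160 in APL. Of the 12, 2 were called lower and none higher, with a median log2 fold change of -0.30. At an adjusted p under 0.05 and any fold change, 7 were lower (58.3%, beside 37.3% of all genes tested) and 2 higher (16.7%, beside 29.7%). The part of cell makeup in the fall of the ribosome biogenesis genes was not tested.

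Monocyte and dendritic cell markers (9 genes) summed to 114 to 141 FPKM in MP and 261 to 284 in APL, with 5 called lower and 2 higher. F13a1 alone set this direction, and without it the other 8 summed to 79.7 to 102 in MP and 23.2 to 25.7 in APL. For B cell markers (7 genes) the sums were 14.5 to 16.1 and 257 to 297, with 3 of 6 tested lower and 2 higher. Igll1 alone carried this sum, and without it the other 6 were at 12.9 to 15.6 in MP and 7.08 to 9.52 in APL (both genes were singled out after their values were seen). T and NK cell markers were at 3.90 to 6.01 in MP and 2.48 to 3.33 in APL, with 2 of 5 lower, Cd3e at 0 in every MP library and Cd3g at 0 in every APL library. Mast cell and basophil markers were at 49.8 to 69.4 and 42.1 to 50, with 4 of 6 lower and 1 higher. Of 5 progenitor surface markers, 3 were called lower and 2 higher, and only c-Kit (Kit) and Sca-1 (Ly6a) were named in the sort. Beside Kit, the mean FPKM of Cd34 fell from 94.5 in MP to 1.15 in APL and that of Cd48 from 61.3 to 0.86. Ly6a rose from 1.36 to 2.18 and Fcgr3 from 21.7 to 81.8.

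The windows around the start sites of 5 of the genes, picked by fold change, call and motif, are printed here. Mrto4 fell most and Polr1b fell most within RNA polymerase I. Wdr43 and Nop2 were the genes called lower with an E box in the window, and Dkc1 was the upregulated one. Each runs 5′ to 3′ from 250 bases before the RefSeq start to the 50th base from it, on GRCm38.p6. They lie at chr4:139352527-139352826 (minus strand) for Mrto4, chr2:129100746-129101045 for Polr1b, chr17:71615965-71616264 for Wdr43, chr6:125131633-125131932 for Nop2 and chrX:75095604-75095903 for Dkc1 (all on the plus strand). Capitals mark the letters searched on both strands: CACGTG (the E box that MYC and MAX proteins bind), CCGGAA (found in ETS sites), GGGCGG (the GC box), TATAAA (the TATA box) and TGCGCA (part of the NRF1 site). None of these matches overlapped in the windows shown.
Mrto4: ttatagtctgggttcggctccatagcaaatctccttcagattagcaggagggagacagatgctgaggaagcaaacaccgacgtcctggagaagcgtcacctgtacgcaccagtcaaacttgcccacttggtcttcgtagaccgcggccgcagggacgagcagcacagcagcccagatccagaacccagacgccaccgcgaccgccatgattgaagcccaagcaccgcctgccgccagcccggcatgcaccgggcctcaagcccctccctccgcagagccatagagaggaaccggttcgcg
Polr1b: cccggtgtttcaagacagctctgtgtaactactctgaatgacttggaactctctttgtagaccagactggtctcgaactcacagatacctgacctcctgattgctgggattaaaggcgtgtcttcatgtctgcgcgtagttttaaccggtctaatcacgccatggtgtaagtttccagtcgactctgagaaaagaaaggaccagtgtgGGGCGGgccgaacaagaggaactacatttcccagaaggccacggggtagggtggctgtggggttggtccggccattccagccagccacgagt
Wdr43: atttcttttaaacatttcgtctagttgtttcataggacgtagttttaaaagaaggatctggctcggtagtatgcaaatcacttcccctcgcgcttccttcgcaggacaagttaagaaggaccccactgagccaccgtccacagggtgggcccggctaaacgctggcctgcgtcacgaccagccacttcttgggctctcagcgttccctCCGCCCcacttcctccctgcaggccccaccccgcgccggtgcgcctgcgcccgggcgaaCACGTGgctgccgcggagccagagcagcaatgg
Nop2: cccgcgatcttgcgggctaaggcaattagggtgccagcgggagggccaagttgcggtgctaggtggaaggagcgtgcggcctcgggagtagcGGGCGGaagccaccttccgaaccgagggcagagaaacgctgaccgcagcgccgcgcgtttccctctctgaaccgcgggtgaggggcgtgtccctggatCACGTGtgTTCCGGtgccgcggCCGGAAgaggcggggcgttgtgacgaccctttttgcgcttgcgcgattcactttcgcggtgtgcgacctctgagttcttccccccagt
Dkc1: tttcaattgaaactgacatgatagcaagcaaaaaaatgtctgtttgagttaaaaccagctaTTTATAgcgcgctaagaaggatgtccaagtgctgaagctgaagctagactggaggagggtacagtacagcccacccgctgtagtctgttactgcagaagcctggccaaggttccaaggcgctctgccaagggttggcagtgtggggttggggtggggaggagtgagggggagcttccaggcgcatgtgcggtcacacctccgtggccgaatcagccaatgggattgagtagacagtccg

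The CACGTG of Nop2 began 60 bases before the start and that of Wdr43 17 bases after it, while the TATAAA of Dkc1, on the other strand, began 189 bases before the start. The Mrto4 window held none of the 5 motifs. It lies wholly outside the locus deposited for this gene, which ends at 139352298, so it may not flank the start of the measured transcript. A window was given for 38 members, and Bop1, Fbl, Gnl2, Rrp12 and Rrs1 had none. Counting a gene when any of its windows held the letters, CACGTG was found for 7 of 38 members (18.4%, beside 11.1% of 11537 tested genes with a window), namely Nop2, Pes1, Rrn3, Tsr1, Utp18, Utp20 and Wdr43. Of these, only Nop2 and Wdr43 were called lower, and the others were not called. CCGGAA was found for 19 (50%, beside 28.9%), GGGCGG for 30 (78.9%, beside 64.9%), TGCGCA for 6 (15.8%, beside 14.8%) and TATAAA for 2, Dkc1 and Pes1 (5.26%, beside 9.34%). These matches describe letters in the windows and not binding.

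All 6 RNA polymerase I genes among the members were lower in APL at an adjusted p under 0.05, with 4 of them called. Polr1b, the second largest subunit of the enzyme, was at 28.5, 29.6 and 28.8 FPKM in MP 1 to 3 and at 15.4, 16.9 and 15.9 in APL 1 to 3. The APL libraries all lay far below the MP libraries, and the log2 fold change was -0.83 ± 0.07 (SE), or 1.78-fold lower, with limma's adjusted p = 6.5e-06. Polr1a, the largest subunit, which carries the catalytic centre together with the second, was at 17.2, 17.6 and 16.6 FPKM in MP and 11.4, 10.6 and 10.2 in APL. Its decrease was 1.63-fold, and no APL library reached an MP library.

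Polr1e, which encodes the PAF53 subunit, had the lowest level of the 43 genes, at 9.93, 10.2 and 11.4 FPKM in MP and 6.19, 6.34 and 6.54 in APL. The groups did not overlap and the fold was 1.67-fold lower. Polr1c, a subunit shared with RNA polymerase III, was at 41.6, 42.3 and 58.3 FPKM in MP and 26.5, 31.9 and 29.4 in APL. MP 3 was well above the other MP libraries for this gene. Its log2 fold change of -0.71 ± 0.15 (limma, adjusted p = 3.2e-03) had the largest standard error among the members, and without MP 3 it was -0.52, under the 1.5-fold threshold.

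The 2 initiation factors had the smallest fold changes of the 6, a difference that was not tested. Ubtf encodes UBF, which binds along the rRNA genes and helps to load the polymerase. It was at 47.4, 47.0 and 48.8 FPKM in MP and 30.8, 33.4 and 33.3 in APL, without overlap, and its decrease of 1.48-fold missed the fold threshold, which it passed without MP 2 or APL 2 (both -0.59). Rrn3, the factor TIF-IA that makes the polymerase competent to initiate, was at 18.5, 19.6 and 20.02 FPKM in MP and 13.9, 13.8 and 15.8 in APL. APL 3 was the highest of the APL libraries and still below all MP libraries, and the fold was 1.32-fold lower with limma's adjusted p = 2.7e-03.

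All 3 core proteins of box C/D snoRNPs were called lower. Fbl, the rRNA methyltransferase fibrillarin and the gene with the highest level of the 43, was at 218, 223 and 277 FPKM in MP and 144, 162 and 161 in APL. The groups were apart, with MP 3 the highest library. Its log2 fold change was -0.63 ± 0.13 (limma, adjusted p = 1.8e-03), and it was -0.48 without MP 3 and -0.58 without APL 1, both under the fold threshold. Nop58, a scaffold of the same particle, was at 132, 126 and 132 FPKM in MP and 78.3, 68.4 and 72.2 in APL. The 3 APL values lay closer to each other than to any MP value, and the decrease was 1.81-fold. For Nop56, its partner scaffold, the levels were 161 ± 7.02 and 91.5 ± 4.16 FPKM, a 1.77-fold decrease.

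The 4 proteins of box H/ACA snoRNPs moved in different directions. Dkc1 encodes dyskerin, the pseudouridine synthase of these particles, which is also part of telomerase. It was at 83.6, 83.6 and 83.2 FPKM in MP and 141, 136 and 140 in APL. The MP libraries were nearly identical and every APL library was above them, with a log2 fold change of 0.74 ± 0.07 (limma, adjusted p = 1.7e-05), or 1.67-fold higher. Gar1, a subunit needed for the catalytic activity of the particle, was at 57.7, 59.2 and 60.6 FPKM in MP and 36.9, 36.6 and 50.3 in APL. APL 3 stood between the other APL libraries and the MP libraries, and the log2 fold change of -0.55 (limma, adjusted p = 3.1e-03) became -0.68 without APL 3, which is past the fold threshold, as was -0.59 without MP 1.

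Nop10, the smallest protein of the particle, was at 183, 189 and 253 FPKM in MP and 143, 134 and 165 in APL. The groups did not overlap, MP 3 was the highest library, and the log2 fold change was -0.52 (limma, adjusted p = 8.2e-03). It passed 1.5-fold when MP 1, MP 2 or APL 3 was left out, at -0.59, -0.60 and -0.62. Nhp2, which binds the guide RNA, was at 121, 118 and 150 FPKM in MP and 122, 135 and 143 in APL. These values overlapped, and the log2 fold change of 0.04 ± 0.13 had an adjusted p of 0.82 in limma, with a sign that changed under other scalings.

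Ratios between these genes, chosen after the values were seen, are given as a description. The FPKM of Dkc1 over Gar1 was 1.45, 1.41 and 1.37 in MP 1 to 3 and 3.82, 3.72 and 2.79 in APL 1 to 3. Dkc1 over Nop10 was 0.458, 0.442 and 0.329 in MP and 0.988, 1.02 and 0.853 in APL. Neither ratio overlapped between the groups. Dkc1 was higher and Gar1 and Nop10 lower in every APL library than in every MP library, so this outcome was fixed. The two-sided exact permutation p was 0.1, the smallest that 3 libraries against 3 can give, and adds nothing to it. Within box C/D particles, Nop56 over Fbl did not overlap either, at 0.736, 0.692 and 0.608 in MP and 0.604, 0.580 and 0.586 in APL (exact permutation p = 0.1), a smaller log2 difference of -0.20. Nop58 over Fbl overlapped, at 0.607, 0.563 and 0.475 in MP and 0.546, 0.424 and 0.450 in APL.

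**Figure D2:**
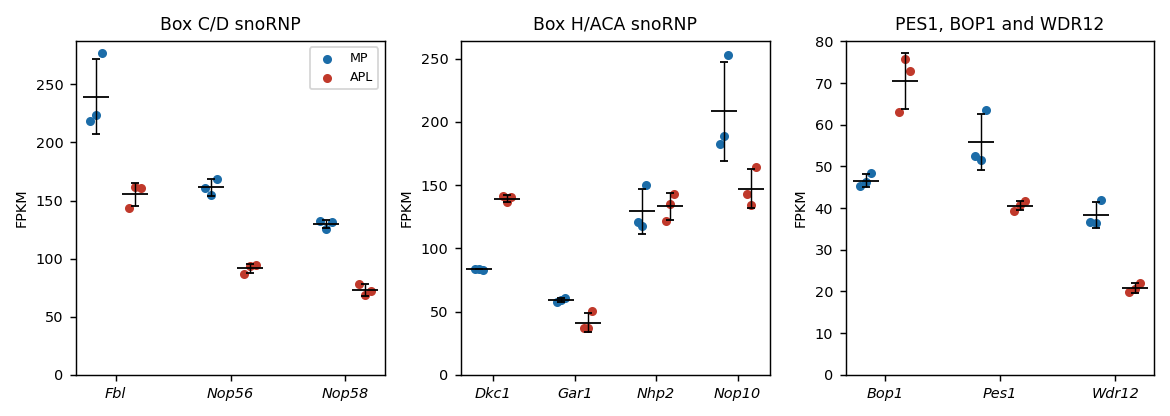
FPKM of the genes of 3 complexes in each library (points), with the mean and SD of each group (n = 3 libraries). In the box H/ACA panel Dkc1 rises from about 83.5 to 139 FPKM while Gar1 falls from 59.2 to 41.3, and in the right panel Bop1 rises while Pes1 and Wdr12 fall.

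Ncl and Nolc1 were lower without being called. Ncl, the abundant nucleolar phosphoprotein nucleolin, was at 184.5, 182 and 166 FPKM in MP and 121, 120.3 and 128 in APL. MP 3 was the lowest MP library here, still above every APL library, and the log2 fold change was -0.51 (limma, adjusted p = 2.8e-03). Nolc1, or Nopp140, a chaperone of snoRNPs, was at 71.6, 71.0 and 68.2 FPKM in MP and 56.4, 57.8 and 56.1 in APL. The groups were tight and apart, with a 1.27-fold decrease.

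Ddx21, a DEAD-box RNA helicase of the nucleolus, was called lower. It was at 81.8, 84.9 and 75.04 FPKM in MP and 52.7, 52.3 and 53.4 in APL. Every APL library lay below every MP library, with a 1.53-fold decrease that was just past the threshold and that fell to -0.57 on the log2 scale without MP 2.

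All 12 factors of the small subunit processome and of 40S maturation had a fold change below 0. Of these, 11 were lower at an adjusted p under 0.05 and 5 were called, with a median log2 fold change of -0.53. Rrp12, a HEAT-repeat protein of 40S precursors, fell most, and it was at 19.7, 20.4 and 19.0 FPKM in MP and 9.73, 10.8 and 10.8 in APL. The gap between the groups was several times the spread within either, and the log2 fold change was -0.93 ± 0.07 (limma, adjusted p = 4.3e-06), or 1.90-fold lower. Wdr43, a member of the subcomplex that binds the precursor early and the most abundant transcript of the 12, was at 52.5, 51.0 and 53.2 FPKM in MP and 33.2, 32.0 and 34.2 in APL. The groups were apart by a 1.58-fold decrease.

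The other 3 called genes of this group were Rrp9, the U3 snoRNA-binding protein (log2 fold change -0.80), Noc4l (-0.72) and its partner Nop14 (-0.67). Lower at the adjusted p but within 1.5-fold were Wdr75 (-0.53), Heatr1 (-0.35) and Utp15 (-0.33), which belong to the same early subcomplex as Wdr43. The late 40S factors Bysl (-0.52) and Tsr1 (-0.49) were also in this range, with Bysl past the threshold at -0.62 without APL 3. Closest to no change was Utp18, of the UTP-B subcomplex, at 26.7, 26.2 and 28.1 FPKM in MP and 23.0, 22.0 and 23.2 in APL. Its groups did not overlap in spite of a difference of only 1.17-fold (limma, adjusted p = 0.014). Utp20, a very large scaffold protein, was the 1 gene of the 12 that missed the test, with a log2 fold change of -0.27 ± 0.11 (limma, adjusted p = 0.051) and MP 3 at 9.75 FPKM inside the APL range of 8.95 to 10.2.

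Among the 15 factors of 60S assembly, 11 were lower at an adjusted p under 0.05, 7 of them called, and 1, Bop1, was higher. Mrto4, a relative of the ribosomal stalk protein P0 that holds its place on 60S precursors, had the largest change of the 43 genes. It was at 57.7, 61.8 and 66.8 FPKM in MP and 26.6, 31.2 and 31.5 in APL. No APL library came near the MP range, and the log2 fold change was -1.09 ± 0.12 (limma, adjusted p = 3.7e-05), or 2.12-fold lower.

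Pa2g4, also called EBP1, which binds ribosomes at the exit of the peptide tunnel, had the highest level of this group. It was at 217, 213 and 229 FPKM in MP and 131, 132 and 142 in APL, clear of each other, with a 1.63-fold decrease. The GTPases Gnl3 (nucleostemin, log2 fold change -0.85) and Gnl2 (-0.81) were called lower. So were Noc3l (-0.65) and Nop2, an rRNA methyltransferase (-0.63). Noc3l was at -0.58 without APL 2 and Nop2 at -0.57 without MP 3, both under the fold threshold.

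Below the fold threshold but lower at the adjusted p were Noc2l (-0.50), a partner of Noc3l, Rrp1b (-0.49), Pes1 (-0.46) and Nop16 (-0.32). Rrs1, which helps to place the 5S particle, was the gene of this group closest to no change. It was at 51.6, 44.9 and 50.3 FPKM in MP and 48.7, 54.0 and 54.7 in APL. The ranges overlapped, and its log2 fold change of 0.09 (limma, adjusted p = 0.37) turned negative when libraries were scaled to the same total. Nip7 (0.12, adjusted p = 0.34 in limma) behaved likewise, and Ebna1bp2 (0.18, adjusted p = 0.063 in limma) lay just above the MP range in APL without passing the test.

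PES1, BOP1 and WDR12 form a complex that is needed to process the precursor of the large subunit rRNA, and their genes did not move together. Bop1 was at 45.3, 46.2 and 48.3 FPKM in MP and 63.0, 75.9 and 72.8 in APL. Every APL library was above the MP libraries, and the log2 fold change was 0.57 ± 0.09 (limma, adjusted p = 4.3e-04), or 1.48-fold, which is just under the threshold and passed it without MP 3 (0.62) and without APL 1 (0.64). Wdr12 was at 36.5, 36.4 and 41.9 FPKM in MP and 19.9, 20.5 and 22.1 in APL. All APL libraries were below the MP range, by 1.83-fold. The FPKM ratio of Bop1 to Pes1, also chosen after the values were seen, was 0.863, 0.898 and 0.759 in MP and 1.60, 1.86 and 1.75 in APL, with a two-sided exact permutation p of 0.1. Bop1 was higher and Pes1 lower in every APL library than in every MP library, so this p was fixed and adds nothing.

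Of the 6 members with a fold change above 0, 2 lie on chromosomes whose genes were higher in APL as a whole. Genes of chromosomes 8 and 15 had median log2 fold changes of 0.48 and 0.46, whereas the median was below 0 for every other chromosome with a member. Bop1 lies on chromosome 15 (76380513 to 76477269 on GRCm38) and Nip7 on chromosome 8 (107056877 to 107060928), and these are the only members on either. Set against the median of their own chromosomes, Bop1 was at 0.11 (limma, adjusted p = 0.31) and Nip7 at -0.36. Dkc1 lies on chromosome X (75095854 to 75130949), where the median was -0.18, and set against it the gene was at 0.92. Set against their own chromosomes, 10 of the 43 genes were called lower (23.3%), which is close to the 20.7% of all genes called lower in the same way, and 1 was called higher. At an adjusted p under 0.05 and any fold change, 34 were lower (79.1%, beside 31.1% of all genes).

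For 11 members the table gave the same locus to another gene, so that fragments could have been divided between them. These were Bop1 (with Heatr7a and Scx), Dkc1 (Mpp1), Nhp2 (Rmnd5b), Nop56 (Idh3b), Gnl3 (Glt8d1 and Spcs1), Gnl2 (Dnali1), Wdr12 (Carf), Noc2l (Samd11), Ebna1bp2 (D4Ertd617e), Bysl (Ccnd3) and Tsr1 (Srr). Both Dkc1 and Bop1, which were higher at the adjusted p, are on this list. So are Nop56, Gnl3, Gnl2, Wdr12, Noc2l, Bysl and Tsr1, which were lower at it. What shared loci did to these values was not tested.

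**Figure D3:**
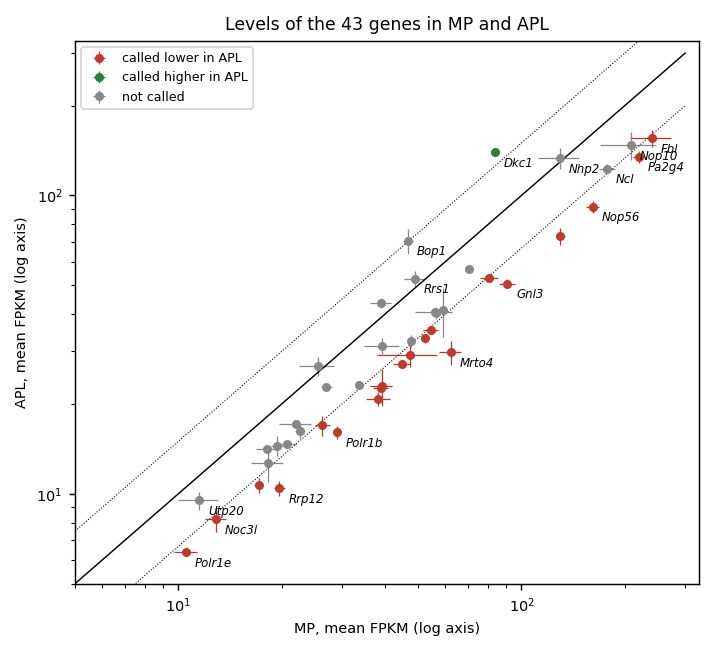
Mean FPKM of each gene in MP (x axis) and APL (y axis), both log axes, with SD bars over 3 libraries; the solid line marks equal levels and dotted lines 1.5-fold. Levels span Polr1e at 10.5 and 6.36 FPKM to Fbl at 239.5 and 155 FPKM, and genes lie below the line of equal levels over this whole range except Dkc1, Bop1, Ebna1bp2, Nip7, Rrs1 and Nhp2.

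In both groups Fbl, Nop10, Pa2g4, Ncl, Nhp2 and Nop56 were among the 7 most abundant transcripts per length, joined by Nop58 in MP and by Dkc1 in APL. Noc3l, Utp20 and Polr1e were the 3 least abundant in both. Fbl and Nop10 were not apart, at 239.5 ± 32.7 and 208 ± 39.0 FPKM in MP and 155 ± 10.1 and 147 ± 15.8 in APL. In APL, Nop10, Dkc1, Pa2g4 and Nhp2 lay within 133 to 147 FPKM, with overlapping ranges, whereas in MP Dkc1 was at 83.5 ± 0.22 and below all of them.

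Other genes of the pathway numbered 176, in 9 lists drawn up by function, and had a median log2 fold change of -0.31. Of these, 39 were called lower (22.2%) and 8 higher (4.55%, beside 21.7% of all genes tested). At the adjusted p and any fold change, 104 were lower (59.1%, beside 37.3%) and 18 higher (10.2%, beside 29.7%). The share called lower was near the 24.4% of all genes, as it was after scaling to the same total (31.2%, beside 29.3%). It was 15.9%, beside 22.4%, with median ratios and 10.8%, beside 20.7%, against own chromosomes. Of the 8 called higher, 5 lie on chromosomes 8 or 15 (Dcaf13, Mphosph6, Polr2k, Rrp7a and Utp23). These chromosomes held 26 of the 176 genes and none of those called lower, and the 5 were singled out after their values were seen. Of all 176, 4 were called higher against their own chromosome's median, 4 without MP 1 and 5 without APL 3.

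The other 60S factors came closest to the members, with 16 of 48 called lower (33.3%, beside 24.4% of all genes tested). None was called higher, and the median was -0.43. They included the most abundant gene of all these lists, Npm1 (nucleophosmin), chosen for mention after its values were seen, at 1284 ± 131 FPKM in MP and 732 ± 45.8 in APL. Wdr18, of a complex that acts on the 60S precursor, fell most, from 30.3, 31.1 and 35.1 FPKM in MP to 14.6, 17.03 and 16.6 in APL, or 2.02-fold. Of the other small subunit factors, 7 of 41 were called lower (17.1%, beside 24.4% of all genes tested) and 3 higher (7.32%, beside 21.7%). Utp14a had the largest decrease (-0.86) and Utp23 the largest rise (0.86), and the median was -0.32.

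Among 15 other RNA polymerase I subunits and initiation factors, 4 were called lower (26.7%, near the 24.4% of all genes tested) and 1 higher. Their median was -0.21. For 8 of the 15 the groups overlapped, among them Polr1d (-0.21), Cd3eap (-0.07) and Znrd1 (-0.05), and the other 7 were lower without overlap. Taf1d, of the selectivity factor SL1, fell most (-0.83), and Polr2k, a small subunit common to all nuclear RNA polymerases, rose (0.60, adjusted p = 0.039 in limma), although its groups overlapped. RNA polymerase III, which makes 5S rRNA and tRNA, had 5 of 21 genes called lower (23.8%, near the 24.4% of all genes tested). None was called higher, and the median was -0.36. Its subunit Polr3d was at 10.5, 12.1 and 13.9 FPKM in MP and 5.60, 5.41 and 6.13 in APL, a 2.16-fold decrease.

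The snoRNP assembly factors had 1 of 10 called lower (10%, beside 24.4% of all genes tested), which was Ruvbl1 (-0.81), and a median of -0.27. Of 15 exosome genes, 3 were called lower (20%), led by Exosc2 (-0.72), and 1 was higher (Mphosph6, 0.59), with a median of -0.24. For 10 proteins of RNase P and MRP the median was -0.13, with 1 called lower (10%), Rpp38 (-0.68), and 1 higher, Rpp25. The latter went from 0.126, 0.0327 and 0 FPKM in MP to 1.48, 1.69 and 1.79 in APL. Of 9 rDNA chromatin regulators 1 was called lower (11.1%), which was Kdm2b (-0.60), and the median was -0.02.

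**Figure D4:**
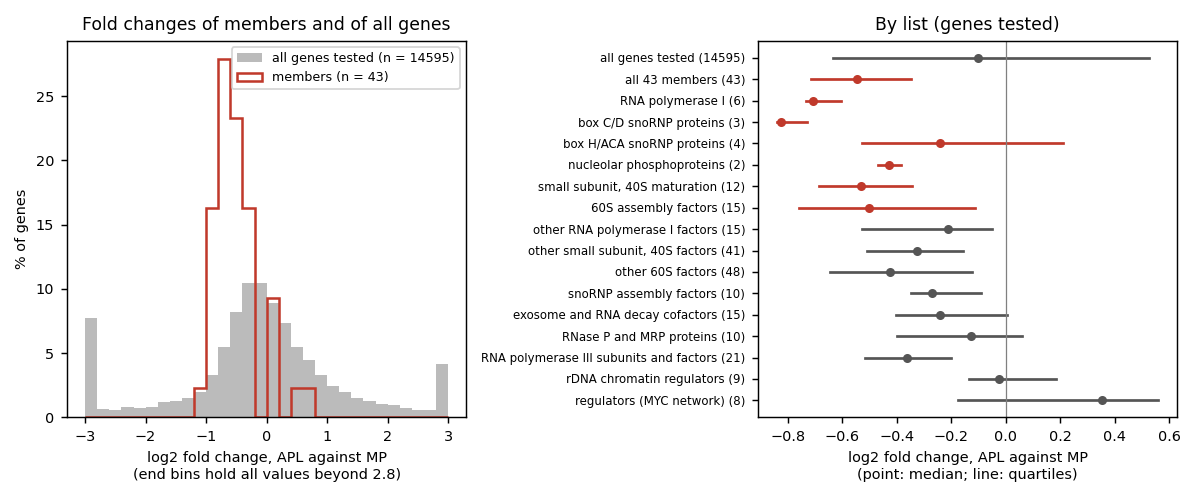
Left, the percentage of genes in each bin of log2 fold change for the 43 members (red line) and all 14595 genes tested (grey); right, medians (points) and quartiles (lines) by list, with the members' lists in red. The members bunch between about -1 and -0.2 with a median of -0.55, and the median of all genes is -0.10.

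Of the 8 MYC network genes, which regulate transcription of this pathway, 1 was called lower (12.5%, beside 24.4% of all genes tested). Called higher were 2 (25%, beside 21.7%), and the median was 0.35. At the adjusted p and any fold change, 2 were lower (25%, beside 37.3%) and 5 higher (62.5%, beside 29.7%). Their part in the fall of the members was not tested. Mycn was at 4.95, 6.003 and 6.85 FPKM in MP and 0.0576, 0.113 and 0 in APL, and all MP libraries were far above the APL libraries. Its paralogue Myc was the more abundant at 132, 148 and 143 FPKM in MP and 103, 119 and 106 in APL, a decrease of 1.31-fold that was not called (limma, adjusted p = 2.8e-03). Myc is among the 26 pathway genes on chromosomes 8 or 15, where the median log2 fold changes were 0.48 and 0.46. Mxi1 and Mxd4, antagonists that pair with MAX in place of MYC, were called higher. The other antagonists of the list, Mxd1, Mxd3 and Mnt, were not called. Mxi1 was at 9.68, 8.57 and 9.85 FPKM in MP and 22.4, 23.2 and 24.0 in APL, or 2.50-fold higher, and Mxd4 was 1.83-fold higher.

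**Figure D5:**
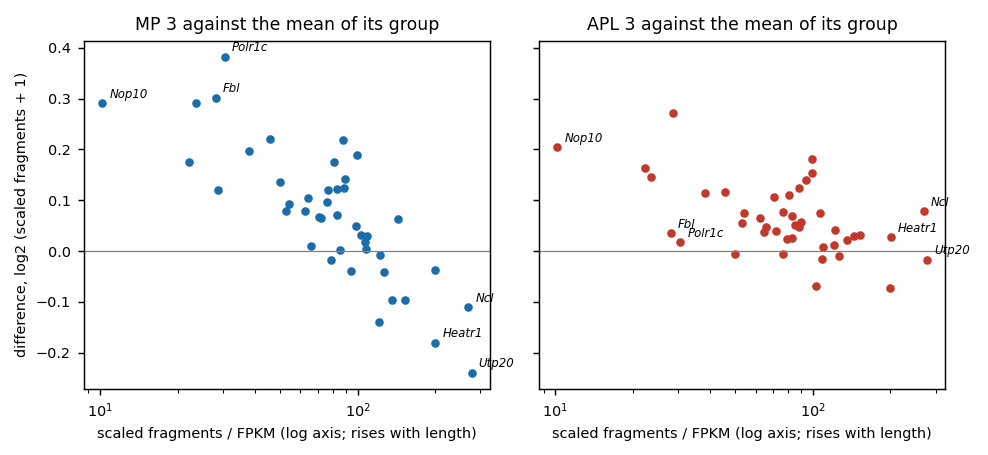
Each point is 1 of the 43 genes, placed by scaled fragments over FPKM (x axis, log, which rises with transcript length) and by the difference of MP 3 (left) or APL 3 (right) from the mean of its group on the log2 scale (y axis). Short genes such as Nop10 lie above 0 and long genes such as Utp20 and Heatr1 lie below 0 in MP 3, with a Spearman correlation of -0.784 over 43 genes.

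The deviation of single libraries was ordered by transcript length. Over the 43 genes, the Spearman correlation between the ratio of scaled fragments to FPKM, which rises with transcript length, and the deviation from the group mean was 0.619 for MP 1, 0.778 for MP 2 and -0.784 for MP 3. It was 0.521 for APL 1, -0.134 for APL 2 and -0.464 for APL 3. The same measure over 10722 genes with a mean FPKM of at least 1 was 0.487, 0.576 and -0.697 in MP and 0.413, -0.170 and -0.364 in APL. The same ratio had a correlation of 0.114 with the fold change of APL against MP over the 43 genes and of 0.0147 over the 10722. The genes of one library share its depth and preparation, so these values describe the libraries.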

How the data were processed

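The deposited table gave an FPKM and a fragment value per gene for 6 libraries of total RNA made with a TruSeq protocol. The deposited fragment values are a signal, estimated fragments that the authors scaled by a factor of each library. Division by the step of 1 fragment (0.867 to 1.23) gave whole numbers within 0.01 for 87.3% to 88.4% of values up to 100 fragments. The deposited FPKM values were normalized by the authors to transcript length and mapped fragments. The submitters' processing notes name CASAVA 1.8, TopHat2 2.0.6 and mm10. The paper's methods name Cutadapt, STAR with mm9, HTSeq-count and DESeq2, and the tool that made the table is not given in the sources used here. Starts in the table count from 0 and are printed from 1.

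Because fragments were scaled estimates, limma 3.58.1 (R 4.3.3, lmFit, eBayes with a trend) was fitted to log2(scaled fragments + 1) of all genes at 1 or more in at least 3 of 6 libraries, with Benjamini-Hochberg adjustment over 14595 genes. A call needed an adjusted p under 0.05 and a fold change over 1.5. Single values were compared by an exact permutation test, which cannot go below 0.1. Library numbers did not pair the groups. Promoter windows came from RefSeq, GRCm38.p6, matched by gene identifier for 38 of 43 genes.

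The 43 genes, the pathway and marker lists and the tests were chosen with earlier results of these data known. All 43 are named with fold change or call. Values per library are given for RNA polymerase I and, in each other role, for the largest rise and fall, the gene closest to no change and the most abundant, and of each pathway list the largest called rise and fall are named. Ratios, Nop56, Wdr12, Utp20, Npm1, Myc and Mxd4 were added after their values were seen. Alternatives covered filters, pseudocounts, scaling, FPKM, voom, chromosome medians, thresholds, a replicate block and leaving out each library.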

Additional observations from a re-analysis of the deposited data

How the results depend on the processing

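The 37 fold changes below 0 and those of Dkc1, Bop1 and Ebna1bp2 kept their sign in all 18 alternatives, and the 36 members lower at the adjusted p at any fold change ranged from 34 to 37. Of 774 values of single members, 709 kept direction and side of the threshold, 35 passed it, 19 no longer passed it and 11 changed sign. Called lower were 20 members (46.5%, beside 24.4% of all genes). There were 30 after scaling to the same total (69.8%, beside 29.3%) or with voom (69.8%, beside 29.2%). Quantile normalization gave 23 (53.5%, beside 22.5%) and median ratios 17 (39.5%, beside 22.4%). Against the own chromosome's median there were 10 (23.3%, beside 20.7%), and at a 2-fold threshold 1. With 1 library left out there were 17 to 23 (39.5% to 53.5%, beside 20.7% to 24.8%). Called higher was 1 member, and 2 with median ratios or FPKM, 0 at 2-fold, and 1 to 2 with 1 library left out. Of pathway genes, 39 were called lower (22.2%, beside 24.4% of all genes) and 55 with the same total or voom (31.2%, beside 29.3% and 29.2%). Median ratios gave 28 (15.9%, beside 22.4%), own chromosomes 19 (10.8%, beside 20.7%) and a 2-fold threshold 3. Called higher were 8, with 4 for the same total, voom or own chromosomes, 2 at 2-fold and 4 to 10 with 1 library left out. The members' median of -0.55 was -0.66 (quantile), -0.68 (same total and voom), -0.48 (median ratio), -0.43 (own chromosome) and -0.62 to -0.53 with 1 library left out. Scaling to the same total moved the median of all genes from -0.10 to -0.23 and the calls from 24.4% lower and 21.7% higher to 29.3% and 18.9%. Nhp2 was at -0.0139 (quantile), -0.0946 (same total), -0.0950 (voom) and -0.0467 to 0.1816 with 1 library left out, Rrs1 at -0.0410 (same total and voom) and Nip7 at -0.0155 (same total), -0.0157 (voom) and -0.362 (own chromosome). The cause was not tested. Same-numbered libraries deviated together only weakly (correlations 0.106, 0.0124 and 0.113 over 12534 genes), and the fit with a replicate block called the same numbers, 20 members lower and 1 higher, and gave 37 lower and 3 higher at the adjusted p.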

Other observations

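Cytosolic ribosomal protein genes, the products that these factors assemble, were picked by symbol after the other results were seen. Of 79 tested, 30 were called lower (38%, beside 24.4% of all genes tested) and 1 higher (1.27%, beside 21.7%). At the adjusted p and any fold change, 52 were lower (65.8%, beside 37.3%) and 1 was higher (1.27%, beside 29.7%). The median log2 fold change was -0.55, or 1.47-fold lower. The values of the 2 groups did not overlap for 56 that were lower and 1 that was higher. Of all genes tested, 39.8% and 31.1% did so. Of the 79, 6 had a fold change above 0, and the 1 called higher was Rpl3l, a paralogue of Rpl3 known from muscle. Its fitted log2 fold change was 4.05. Rpl26 had the largest called decrease, with a log2 fold change of -1.12. Many of these genes have processed pseudogenes, so the division of fragments among copies makes their single values uncertain.

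Among the members, the library with the most values above its group mean was MP 3 in the MP group (32 of 43) and APL 3 in the APL group (36 of 43), while APL 1 had 8 and MP 1 had 14. The median deviation of the 43 genes was 0.07 in MP 3 and 0.05 in APL 3 on the log2 scale, beside 0.09 and 0.01 for all genes.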
